A study of Homo sapiens with 6 samples.

Results

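The genes examined here mark bile duct cells, liver progenitor cells or liver cancer cells, and were measured in Huh7 cells that overexpress HK1, the gene of hexokinase 1. They were taken from the count table by gene name, as SOX9, SOX4, KRT7, KRT19, EPCAM, PROM1, CD24, CD44, SPP1 and GPC3, and all 10 were found among its 79172 gene names. Huh7 is an established human hepatocellular carcinoma line. RNA was sequenced from 3 samples labelled Overexpressing HK1 and 3 labelled Control, all of the same line. The sources used here do not give the vector or method behind the overexpression, nor any treatment of the Control cells. The labels do not state that replicates were separate cultures, so the spread behind each p-value is that between these samples and may be technical only.

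In the liver, hepatocytes and bile duct cells arise from a common precursor, the hepatoblast. SOX9 and the keratins KRT7 and KRT19 mark the duct lineage in adult liver, and EPCAM, PROM1, CD24 and CD44 are surface proteins used to sort progenitor-like or tumour-initiating cells. SPP1 encodes osteopontin, a secreted protein that binds integrins and CD44, and GPC3 is a fetal liver surface protein that is used as a marker of hepatocellular carcinoma.

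CD44 and SPP1 rose by 36.0% and 28.7% in HK1-overexpressing cells, while GPC3 fell by 26.8% and SOX9 fell by 21.5%. SOX4, KRT19, EPCAM, PROM1 and CD24 did not pass, and KRT7 was at too few counts for the test. Levels are CPM, a gene's share of its library's counts scaled by TMM, and a gene was called at a Benjamini-Hochberg adjusted p below 0.05 over all tested genes with edgeR's quasi-likelihood test. Of 9 markers tested, 2 rose and 2 fell, while of all 16734 genes tested 8.02% were called, 3.87% higher (648 genes) and 4.15% lower (694 genes), or 907 and 462 genes with library totals in place of TMM. The median log2 change was 0.03 over the 9 markers and 0.01 over all genes. Called genes had a median size of change of 0.35 on the log2 scale.

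Library totals were 19607663 to 20823072 counts in HK1-overexpressing samples and 16771835 to 20071846 in Control samples. HK1 itself, the check of the labels, had 9723, 10602 and 11101 counts in HK1-overexpressing libraries, against 13, 15 and 13 in Control libraries. Control libraries varied more: the SD of log2 CPM had a median of 0.0772 over genes in HK1-overexpressing samples and 0.130 in Control samples. It was larger in Control for 8 of the 9 tested markers and for 69.9% of all tested genes. Control replicate 2 was the lowest Control library for 7 of the 9. Hepatocyte lineage genes were abundant in every library, as the cell line's label gives, with ALB, APOA1, APOB, TTR, SERPINA1, TF, FGB, AFP and HNF4A summing to between 10438 and 10785 CPM in HK1-overexpressing samples and between 13469 and 14381 CPM in Control samples. Of markers of other cells, CDH5 and KDR of endothelium had 0 counts in all 6 libraries, so that 3 counts, or 0.144 to 0.179 CPM depending on the library, bound their level, for counting error only. The 4 endothelial markers summed to between 4.54 and 5.41 CPM in HK1-overexpressing samples and between 4.03 and 6.26 CPM in Control samples, nearly all of it PECAM1. PTPRC of leukocytes had 3, 2 and 2 counts in HK1-overexpressing libraries and 1 in each Control library. The 5 leukocyte markers summed to between 46.4 and 51.2 CPM in HK1-overexpressing samples and between 64.6 and 74.5 CPM in Control samples, nearly all of it LYZ. LYZ itself fell (log2 -0.53, edgeR adjusted p = 0.000297), while CD14, the only other one tested, did not pass (-0.07, 0.84). In bulk RNA, fewer cells that carry a marker and less of its RNA per cell cannot be told apart.

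**Figure D1:**
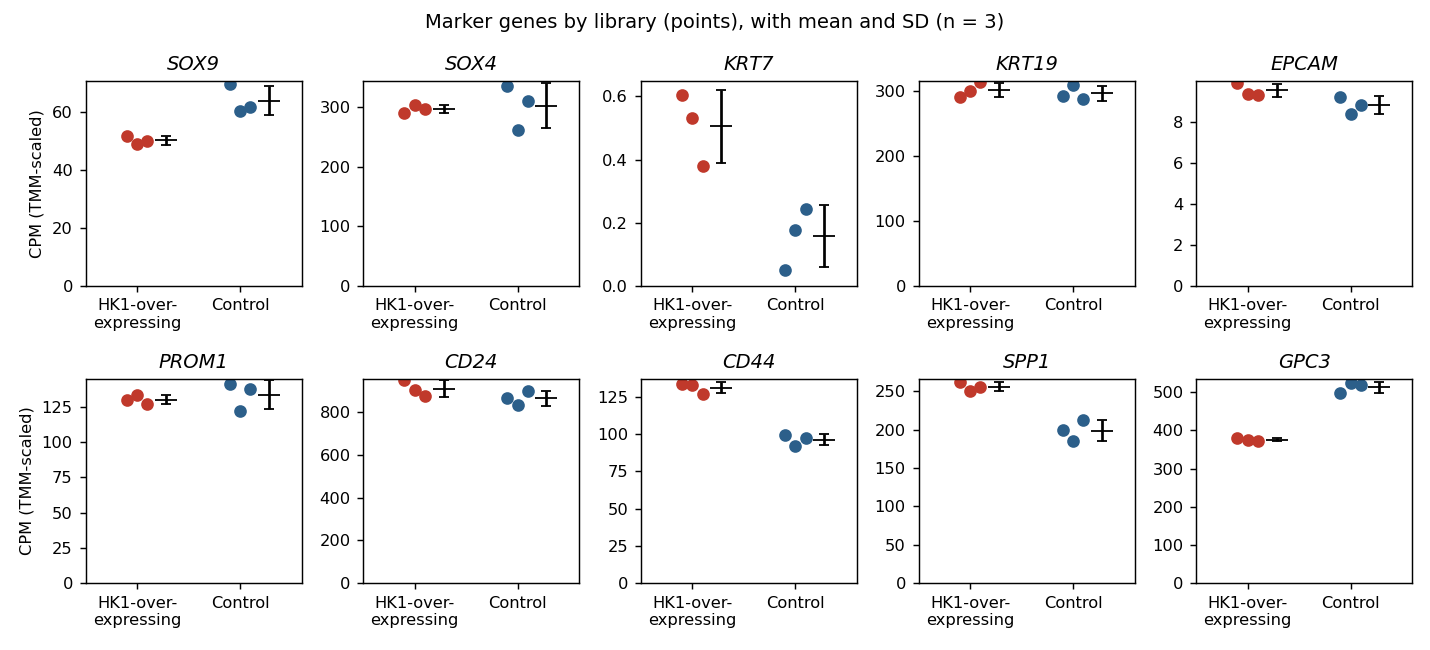
Level of each marker gene in CPM (linear axis from 0) in the 3 HK1-overexpressing libraries, left, and the 3 Control libraries, right, with the mean and SD beside the points. CD44 and SPP1 lie higher and GPC3 and SOX9 lower in HK1-overexpressing libraries with no overlap between groups. EPCAM, which was not called, and KRT7, which had too few counts for the test, also lie higher with no overlap. Of all tested genes, 27.8% had no overlap. SOX4, KRT19, PROM1 and CD24 overlap.

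SOX9 and SOX4 are transcription factors of the SRY-related HMG box family. SOX9 is the classical factor of the bile duct lineage, and SOX4 acts with it in duct development in mouse. SOX9 (chromosome 17, 72121020 to 72126416, plus strand, hg38) was at 51.9, 48.9 and 50.1 CPM in HK1-overexpressing libraries, against 69.8, 60.4 and 61.9 CPM in Control libraries. Every HK1-overexpressing value was below every Control value, and Control replicate 1 was the highest of all. Its log2 change was -0.35 and its standard error 0.0664 (edgeR adjusted p = 0.00467). Its call held under all 15 alternatives run, with adjusted p between 3.33e-05 and 0.0468 and log2 changes between -0.39 and -0.28.

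SOX4 (chromosome 6, 21593751 to 21598619, plus strand) was at 290.7, 303.8 and 297.6 CPM in HK1-overexpressing libraries, against 335.9, 262.5 and 311.1 CPM in Control libraries. The HK1-overexpressing libraries all lay inside the range of the Control libraries. The log2 change was -0.03 with a 95% interval of -0.19 to 0.14 (edgeR adjusted p = 0.874), or a fold of 0.874 to 1.10. Its sign turned without Control replicate 1 (0.06) and with library totals only (0.010). Per kilobase of summed exons, the ratio of SOX4 to SOX9 was 4.52, 5.01 and 4.79 in HK1-overexpressing libraries and 3.89, 3.51 and 4.06 in Control libraries. The ratios did not overlap between groups, nor did SOX9 alone. The share of gene pairs without overlap was not computed.

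The keratins KRT7 and KRT19 form intermediate filaments of simple epithelia such as the bile duct. They stood at opposite ends of the range of levels. KRT19 (chromosome 17, 41523617 to 41528308, minus strand) was at 291.1, 299.4 and 313.4 CPM in HK1-overexpressing libraries, against 291.3, 309.2 and 287.1 CPM in Control libraries. The groups overlapped, the log2 change was 0.03 with an interval of -0.08 to 0.13 (edgeR adjusted p = 0.810), and its sign turned without HK1-overexpressing replicate 3 (-0.0029). KRT7 (chromosome 12, 52232520 to 52252186, plus strand) had 12, 11 and 8 counts in HK1-overexpressing libraries, against 1, 3 and 4 counts in Control libraries. The groups did not overlap, but the gene fell below the filter on low counts. Pooled over libraries and scaled to library totals, KRT7 was at 0.509 CPM in HK1-overexpressing cells with an exact 95% interval of 0.346 to 0.722, and at 0.148 CPM in Control cells with an interval of 0.0638 to 0.291, both for counting error only. The ratio of the pooled levels was 3.44, with an exact interval of 1.55 to 8.67. That interval too is for counting error only and leaves out the spread between libraries. With no filter, edgeR gave KRT7 a log2 change of 1.71 and an adjusted p of 0.0533, which missed the threshold.

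EPCAM, an adhesion protein of epithelia and hepatic progenitors, was the lowest of the tested markers. EPCAM (chromosome 2, 47345158 to 47387601, plus strand) was at 9.89, 9.35 and 9.30 CPM in HK1-overexpressing libraries, against 9.22, 8.34 and 8.82 CPM in Control libraries. The groups did not overlap, but the gap was narrow, and 27.8% of all tested genes had no overlap. The log2 change was 0.11 with an interval of -0.09 to 0.31 (edgeR adjusted p = 0.543). PROM1, which encodes the membrane glycoprotein CD133, was at 129.5, 133.1 and 126.8 CPM in HK1-overexpressing libraries, against 140.9, 121.9 and 137.5 CPM in Control libraries. PROM1 (chromosome 4, 15963076 to 16084378, minus strand) overlapped between groups, with a log2 change of -0.04 and an interval of -0.17 to 0.09 (edgeR adjusted p = 0.751). Its sign turned without Control replicate 1 (0.0064).

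CD24, a small heavily glycosylated protein held in the membrane by a lipid anchor, was the most abundant marker. CD24 (chromosome 6, 106969831 to 106975627, minus strand) was at 947.8, 902.5 and 871.7 CPM in HK1-overexpressing libraries, against 861.9, 829.2 and 898.0 CPM in Control libraries. The groups overlapped, and the log2 change was 0.07 with an interval of -0.03 to 0.18 (edgeR adjusted p = 0.429). Counts of CD24 are uncertain because a copy of its coding sequence, CD24P4, has a row of its own. Both coding sequences are printed because long stretches are the same in both, from the transcripts of GENCODE release 29, with capitals at the bases that differ.
CD24: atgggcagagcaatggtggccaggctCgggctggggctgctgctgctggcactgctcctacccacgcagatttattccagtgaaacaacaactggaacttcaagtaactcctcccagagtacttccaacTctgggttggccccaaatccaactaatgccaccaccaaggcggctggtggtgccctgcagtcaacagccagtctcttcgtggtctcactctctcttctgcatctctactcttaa
CD24P4: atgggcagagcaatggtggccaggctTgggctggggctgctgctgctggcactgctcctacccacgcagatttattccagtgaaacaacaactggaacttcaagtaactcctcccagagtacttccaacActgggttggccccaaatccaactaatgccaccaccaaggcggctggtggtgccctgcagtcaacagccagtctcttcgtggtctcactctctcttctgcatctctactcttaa
They differ at 2 of 243 bases, C27T and T130A, counted from the start of the coding sequence, with the base of CD24 given before that of the copy. CD24P4 was at 51.0, 50.4 and 52.9 CPM in HK1-overexpressing libraries, against 49.8, 39.3 and 51.9 CPM in Control libraries, and held between 4.74% and 6.07% of the counts of CD24. Summing the counts of CD24 and the copy, which was chosen after the data were seen, gave a log2 change of 0.08 (edgeR adjusted p = 0.408).

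CD44, a cell surface receptor for hyaluronan and osteopontin, rose most among the tested markers. CD44 (chromosome 11, 35138882 to 35232402, plus strand) was at 133.4, 133.2 and 126.6 CPM in HK1-overexpressing libraries, against 99.6, 92.1 and 97.2 CPM in Control libraries. All HK1-overexpressing libraries were well above all Control libraries, and the spread within each group was small beside that gap. The log2 change was 0.44 and its standard error 0.0533 (edgeR adjusted p = 0.000136). Of all tested genes, 9.29% changed by at least as much as CD44 in either direction. The counts are per gene, so the splice forms of CD44 were not measured here.

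SPP1, osteopontin, is secreted by bile duct cells and by many carcinomas. SPP1 (chromosome 4, 87975667 to 87983532, plus strand) was at 262.2, 250.2 and 254.8 CPM in HK1-overexpressing libraries, against 199.0, 184.5 and 212.5 CPM in Control libraries. The groups were apart, with the Control libraries more spread. The log2 change was 0.36 and its standard error 0.0555 (edgeR adjusted p = 0.000924). The calls of CD44 and SPP1 held under all 15 alternatives, with log2 changes of 0.42 to 0.48 for CD44 and 0.32 to 0.41 for SPP1. Of 6 mesenchymal markers, LUM and COL1A2 also rose (log2 0.72 and 0.58, edgeR adjusted p = 1.74e-06 and 0.00100). The sum of COL1A1, COL1A2, PDGFRB, DCN, LUM and ACTA2 was 194.6 to 203.8 CPM in HK1-overexpressing samples. In Control samples it was 114.8 to 126.4 CPM. LUM and COL1A2 made up nearly all of that sum, while 4 of the 6 genes, COL1A1, PDGFRB, DCN and ACTA2, stayed below 1 CPM in every library. Of those 4, COL1A1 and PDGFRB had lower means in HK1-overexpressing samples (0.163 and 0.305 CPM) than in Control samples (0.214 and 0.544 CPM). The means of DCN and ACTA2 were higher. The part of these 6 genes in the rises of CD44 and SPP1 was not tested.

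The promoters of CD44 and SPP1, the 2 markers called higher, are shown from 250 bases before to 50 after the start, from RefSeq on GRCh38.p14, plus strand. The table of promoters held 5 of the 10 markers. Capitals mark matches to the letters of 3 factor motifs, RUNX (TGTGGT), ETS (GGAAGT) and SP1 (GGGCGG), on either strand.
SPP1, chr4:87975464-87975763: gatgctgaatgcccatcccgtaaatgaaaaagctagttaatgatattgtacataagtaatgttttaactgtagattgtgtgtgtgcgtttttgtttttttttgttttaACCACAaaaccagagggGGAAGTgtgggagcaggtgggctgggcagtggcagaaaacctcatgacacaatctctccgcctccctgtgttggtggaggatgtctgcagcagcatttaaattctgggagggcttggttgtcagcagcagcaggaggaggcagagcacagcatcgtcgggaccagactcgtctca
CD44, chr11:35138921-35139220: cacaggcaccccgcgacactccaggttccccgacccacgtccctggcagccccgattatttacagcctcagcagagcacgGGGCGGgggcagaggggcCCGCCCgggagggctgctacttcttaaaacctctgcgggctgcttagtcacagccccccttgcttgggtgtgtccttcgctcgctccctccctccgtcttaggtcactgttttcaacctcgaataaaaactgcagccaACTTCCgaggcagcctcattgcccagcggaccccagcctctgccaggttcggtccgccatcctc
SPP1 held 1 RUNX match at position -142 from the start (minus strand) and 1 ETS match at -125 (plus strand). CD44 held SP1 matches at -170 (plus strand) and -152 (minus strand) and 1 ETS match at -14 (minus strand). The ETS letters were the only motif found in both, and they occur in 22.8% of 35116 promoters of the same length, against 13.1% for RUNX and 45% for SP1. Letters for AP-1 (TGANTCA), TCF (CTTTGA), SOX (ACAANG) and the TATA box (TATAAA) were also searched on both strands and were not in these 2 windows. No 2 matches overlapped. G and C made up 47.7% of the SPP1 window and 63.3% of the CD44 window. The table of promoters also held CD24, PROM1 and SOX4, which did not pass the test. A CD24 window held an ETS match at -240 (minus strand), while PROM1 and SOX4 held none. SP1 matches were in windows of CD24 and PROM1 but not of SOX4. The part of any of these letters in the rises of CD44 and SPP1 was not tested.

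GPC3, glypican 3, carries heparan sulfate chains at the cell surface. With TMM and all libraries it had the largest change in size of the 9 tested markers, at -0.45 against 0.44 for CD44. That order turned in some alternatives, among them library totals only (-0.41 for GPC3 and 0.48 for CD44). GPC3 (chromosome X, 133535745 to 133987100, minus strand) was at 380.4, 374.3 and 372.1 CPM in HK1-overexpressing libraries, against 497.0, 524.3 and 517.6 CPM in Control libraries. The groups lay far apart, with the HK1-overexpressing libraries within a few CPM of each other. The log2 change was -0.45 and its standard error 0.0449 (edgeR adjusted p = 2.34e-05). Under the 15 alternatives it lay between -0.47 and -0.41, and the call held in each. The summed hepatocyte lineage markers given above were also lower in every HK1-overexpressing library than in any Control library. Of the 9 genes, ALB, APOA1, TTR, TF, FGB and AFP fell, while SERPINA1 (log2 -0.51, edgeR adjusted p = 0.0675), APOB (-0.16, 0.589) and HNF4A (0.01, 0.924) did not pass. Their part in the falls of GPC3 and SOX9 was not tested. Per kilobase of summed exons, the ratio of SPP1 to GPC3 was 0.312, 0.303 and 0.310 in HK1-overexpressing libraries, against 0.181, 0.159 and 0.186 in Control libraries. By the longest coding transcript, chosen after the data were seen, it was 1.12, 1.09 and 1.11 in HK1-overexpressing libraries and 0.650, 0.572 and 0.667 in Control libraries, so which of these genes is higher in HK1-overexpressing cells depends on the length used. By summed exons, the ratio of CD44 to GPC3 was 0.115, 0.117 and 0.112 in HK1-overexpressing libraries, against 0.0658, 0.0577 and 0.0616 in Control libraries.

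**Figure D2:**
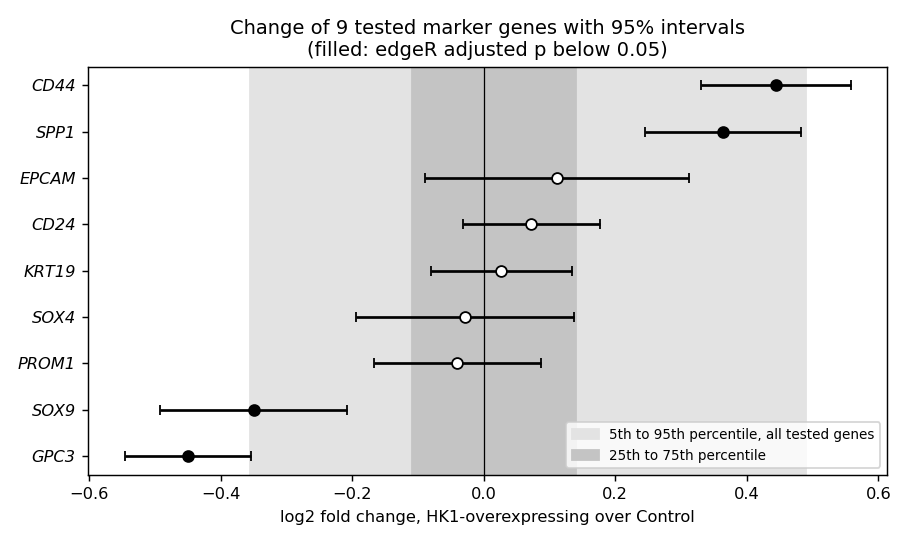
Log2 fold change, HK1-overexpressing over Control, of the 9 tested marker genes (points) with 95% intervals, over the range of all tested genes in grey. GPC3 (-0.45) and SOX9 (-0.35) lie below 0 and CD44 (0.44) and SPP1 (0.36) above it, while the intervals of the other 5 cross 0.

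Levels of different genes were compared as CPM per kilobase of summed exons. In that order CD24 was highest, at 293.1 ± 12.4 in HK1-overexpressing cells and 278.8 ± 11.1 in Control cells (SD, n = 3 each). It was followed by GPC3, KRT19, SOX4, SPP1, PROM1, SOX9, CD44, EPCAM and KRT7, by the mean of all 6 libraries. Of the 9 pairs of neighbours, 7 kept their order in every library. GPC3 and KRT19 changed places: GPC3 was at 114.5 ± 1.30 in HK1-overexpressing cells and 156.4 ± 4.33 CPM per kilobase in Control cells, and KRT19 at 129.0 ± 4.83 and 126.7 ± 5.02 in the same groups. SOX9 and CD44 also met: SOX9 was at 12.8 ± 0.381 in HK1-overexpressing cells and 16.3 ± 1.28 CPM per kilobase in Control cells, and CD44 at 13.1 ± 0.387 and 9.64 ± 0.382 in the same groups, so that by summed exons they did not differ beyond their spread in HK1-overexpressing cells. Summed exons overstate the length of a gene with many short forms. With the longest coding transcript of GENCODE release 29 in their place, chosen after the data were seen, SPP1 was at 161.7 ± 3.82 in HK1-overexpressing cells and 125.7 ± 8.85 CPM per kilobase in Control cells and passed SOX4. KRT19 then stood above GPC3, and CD44 above SOX9, by the mean of all libraries. The ratio of CD44 to SOX9 was then 1.77, 1.87 and 1.73 in HK1-overexpressing libraries and 0.980, 1.05 and 1.08 in Control libraries, so by this length they were apart in HK1-overexpressing cells.

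**Figure D3:**
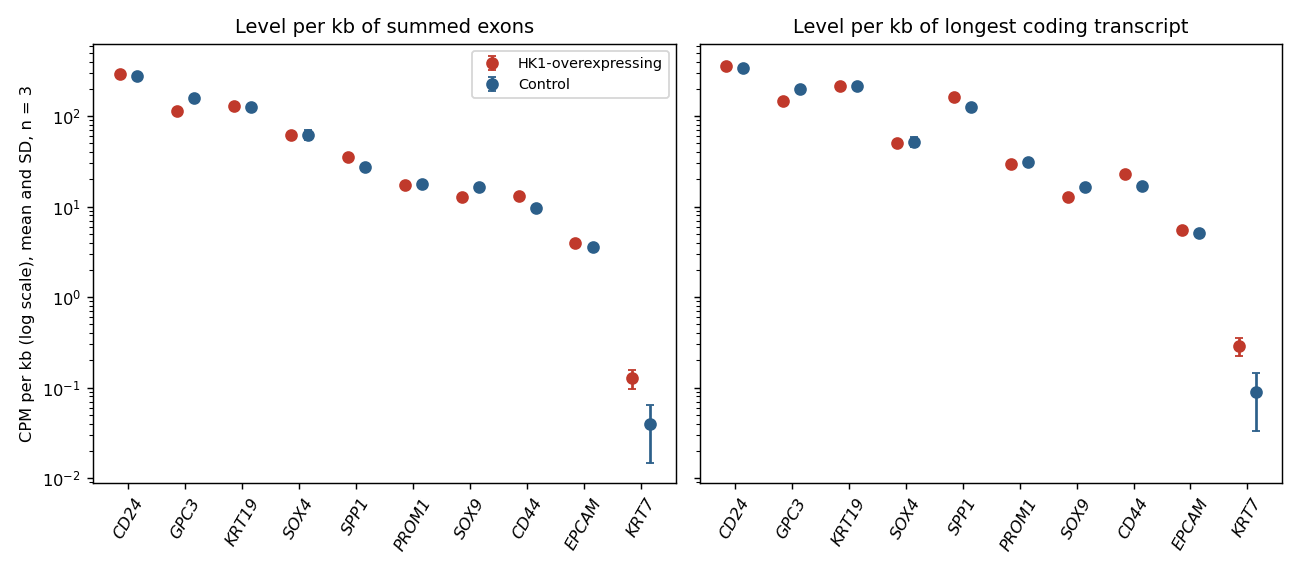
Mean level and SD (n = 3) of each marker gene in CPM per kilobase on a log axis, HK1-overexpressing left of Control at each gene, by summed exons (left panel) and by the longest coding transcript (right panel). CD24 is highest and KRT7 lowest in both panels, and SPP1 in HK1-overexpressing cells stands at 35.3 in the left panel and 161.7 in the right.

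Lists of related genes, 5 in number, chosen by role with earlier results of these data known, were read beside the markers. They leave out the 10 markers themselves, so SOX9 and GPC3 are in none of their counts. Of 21 tested genes among other liver cancer surface and oncofetal markers, 2 rose and 5 fell, with a median log2 change of -0.0026 (33.3% called, against 8.02% of all tested genes). AFP, the fetal plasma protein used with GPC3 as a tumour marker, was at 1278 ± 37.3 CPM in HK1-overexpressing cells and 1895 ± 32.2 CPM in Control cells (SD, n = 3 each), a log2 change of -0.57 (edgeR adjusted p = 2.37e-06). IGF2, a fetal growth factor, fell by 0.71 on the log2 scale, and ALDH1A1, a retinaldehyde dehydrogenase, by 0.28. CEACAM1, a cell adhesion protein, rose by 0.38, and CD47, which signals to macrophages, by 0.24. GOLM1, a Golgi membrane protein, fell by 0.16, and NES, which encodes nestin and is named after its values were seen, by 0.23 (edgeR adjusted p = 0.0385). The calls of CD47, GOLM1 and NES were lost when any single HK1-overexpressing library was left out, when 1 gene rose and 3 fell. Those of GOLM1 and NES were also lost with library totals only. That of GOLM1 was lost too without Control replicate 3, with no filter or with a replicate block. That of NES was lost too without Control replicate 1, with limma-voom, with a filter at a mean CPM of at least 5 or without robust dispersion. Leaving out Control replicate 1 gave 4 rises. With library totals only, 4 rose and 3 fell.

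Of 20 tested among other bile duct and progenitor genes, 1 rose and 1 fell, with a median log2 change of -0.07. That is 10% called, near the 8.02% of all tested genes. CD9, a tetraspanin, was at 32.1 ± 1.17 CPM in HK1-overexpressing cells and 18.5 ± 0.967 CPM in Control cells (SD, n = 3 each), a log2 change of 0.80 (edgeR adjusted p = 9.33e-06), larger in size than that of any of the 9 markers. ELF3, an epithelial ETS factor, was at 94.0 ± 4.4 CPM in HK1-overexpressing cells and 109.3 ± 7.19 CPM in Control cells, a log2 change of -0.22 (edgeR adjusted p = 0.0400). That call was lost without any single HK1-overexpressing library, where the list had 0 falls, and with 5 other settings, among them library totals only and limma-voom. The falls numbered 4 without Control replicate 1 and 3 without Control replicate 2. KRT8 and KRT18, the keratin pair of hepatocytes, named here for their kinship with KRT19 after their values were seen, had log2 changes of -0.10 and -0.15 and did not pass (edgeR adjusted p = 0.207 and 0.0620).

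Apart from SOX9, which fell, no gene was called among the 26 tested of the other SOX genes and the Notch pathway, which directs duct formation, by edgeR, by DESeq2 or by limma-voom. At an unadjusted edgeR p below 0.05, 2 were higher and 3 lower, and the median log2 change was 0.05. MAML3, a Notch coactivator, had a log2 change of -0.27 (edgeR adjusted p = 0.0696). NOTCH2, the receptor of bile duct formation, was at 99.6 ± 4.11 CPM in HK1-overexpressing cells and 84.1 ± 12.1 CPM in Control cells (SD, n = 3 each), a log2 change of 0.24 (edgeR adjusted p = 0.129). Without Control replicate 1 it was called, with a log2 change of 0.36 (edgeR adjusted p = 0.000898), as the 1 gene of the list then called higher, and likewise with no filter (0.26, edgeR adjusted p = 0.00166). Without Control replicate 2, 2 genes were called lower.

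Apart from GPC3, which fell, of 28 tested glypicans, syndecans and heparan sulfate enzymes 1 rose and 1 fell, with a median log2 change of -0.0024 (7.14% called, against 8.02% of all tested genes). SDC1, syndecan 1, another heparan sulfate protein of the hepatocyte surface, was at 112.5 ± 4.98 CPM in HK1-overexpressing cells and 142.4 ± 4.99 CPM in Control cells (SD, n = 3 each), a log2 change of -0.34 (edgeR adjusted p = 0.00123). GLCE, an epimerase of heparan sulfate synthesis, rose by 0.39 on the log2 scale, a call that was lost without HK1-overexpressing replicate 1. The rises numbered 2 without Control replicate 1 and the falls 2 without Control replicate 2. GPC6, named after its values were seen, was the only other glypican above 3 CPM, at 39.1 ± 1.87 CPM in HK1-overexpressing cells and 36.8 ± 4.02 CPM in Control cells, with a log2 change of 0.09 that missed the threshold (edgeR adjusted p = 0.585).

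Of 23 tested receptors, partners and proteases of CD44, osteopontin and EpCAM, 1 rose and 1 fell, with a median log2 change of 0.10 (8.70% called, near the 8.02% of all tested genes). FHL2, a nuclear partner of the cleaved EpCAM tail, was at 14.9 ± 0.566 CPM in HK1-overexpressing cells and 12.1 ± 0.474 CPM in Control cells (SD, n = 3 each), a log2 change of 0.30 (edgeR adjusted p = 0.0374). That call was lost without any single HK1-overexpressing library, without Control replicate 1 or 3 and with DESeq2. HYAL1, a hyaluronidase, fell by 0.74 on the log2 scale, which was lost without Control replicate 2 or HK1-overexpressing replicate 1 or 3. The rises numbered 2 without Control replicate 1 and 3 with no filter. The osteopontin receptor subunits ITGAV, ITGB1 and ITGB5, named for their role after their values were seen, had log2 changes of 0.25, 0.15 and -0.06 and did not pass (edgeR adjusted p = 0.550, 0.365 and 0.477). ITGAV varied widely in Control, at 560.2 ± 9.45 CPM in HK1-overexpressing cells and 470.4 ± 113 CPM in Control cells.

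**Figure D4:**
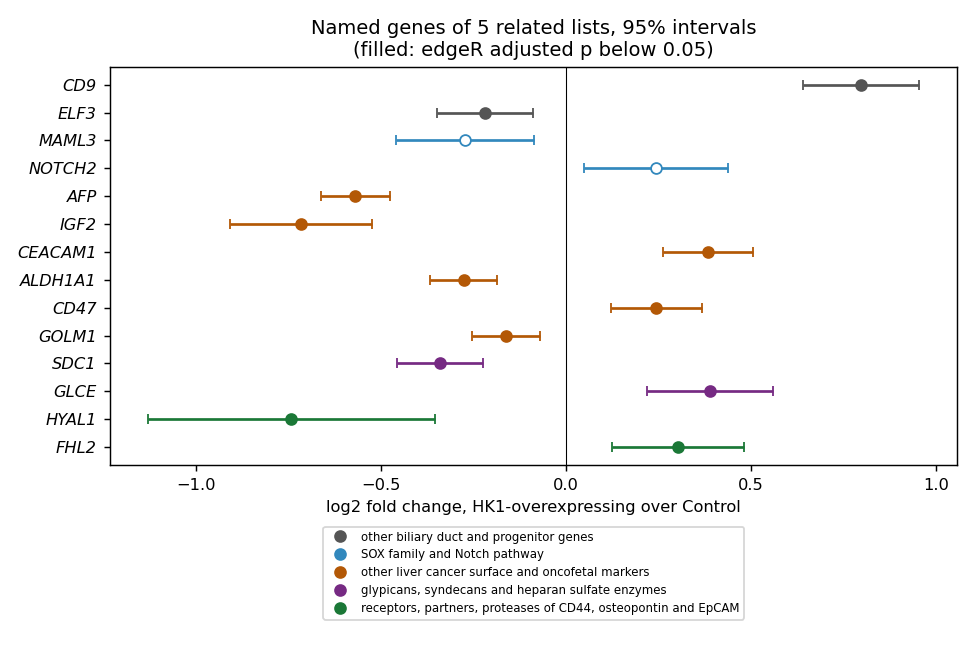
Log2 fold change, HK1-overexpressing over Control, with 95% intervals, of genes of the 5 related lists named by smallest p, coloured by list. Genes named after their values were seen, such as NES, KRT8 and GPC6, are not shown. CD9 (0.80) lies highest and HYAL1 (-0.74) and IGF2 (-0.71) lowest, and the open points of MAML3 and NOTCH2 did not pass the test.

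**Figure D5:**
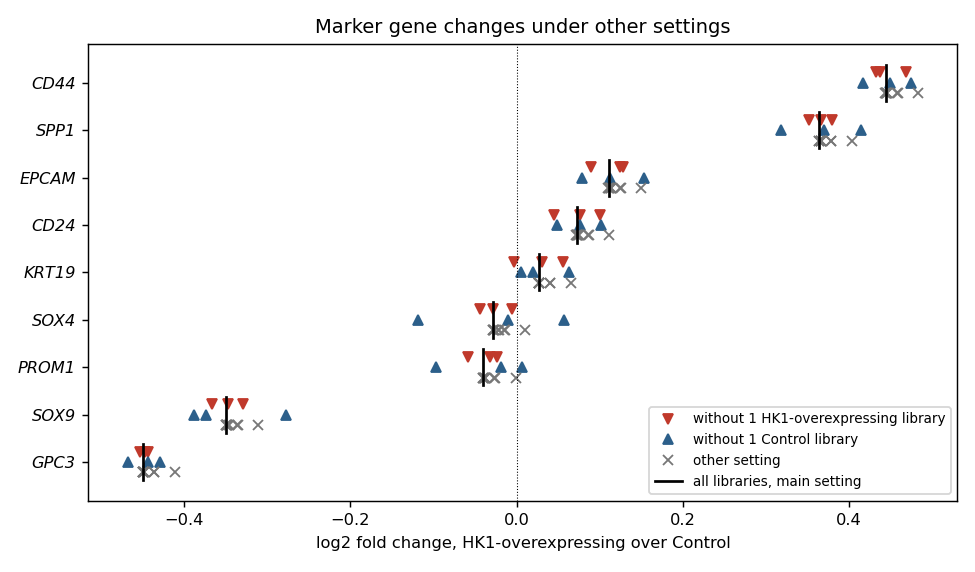
Log2 fold change of the 9 tested marker genes when 1 library is left out (triangles) or another setting is used (crosses), against the value with all libraries (bars). GPC3, SOX9, SPP1 and CD44 keep their side of 0 throughout, and so do EPCAM and CD24, which were not called. SOX4, PROM1 and KRT19 cross it.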

How the data were processed

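RNA-seq of 6 Huh7 samples was analysed from raw counts per gene, which the authors made with featureCounts 1.5.3 for read pairs on exons of GENCODE release 47, summed per gene name, per the file headers. Trim Galore, Subread and the build hg38 are named in the submitters' processing notes. RNA was extracted with TRIZOL and a stranded kit was used, per the labels' protocols, but no strand option was set in counting, per the file headers. Of the 10 markers, 6 share 0.8% to 7.32% of their exon bases with 8 other genes, each of at most 13 counts in a library.

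Genes were kept by filterByExpr with a minimum count of 10, scaled by TMM and tested with the robust quasi-likelihood test of edgeR 4.0.16 in R 4.3.3, with group as the only term, over all 16734 genes. Intervals at 95% use the standard error from the F statistic and are approximate. Copies were sought with blastn 2.17.0 at 95% identity over 100 bases. Besides CD24P4, hits were KRT19P1 for KRT19, with 0 or 1 counts in each library, and KRT7-AS for KRT7, with 0 to 2. KRT7-AS overlaps KRT7 on the other strand. AL512380.2 for SOX4 and AC093840.1 for EPCAM had no row under those names, so their counts are not known. DESeq2 1.42.0, limma-voom (3.58.1), other scalings and filters, a replicate block and leaving out each library were alternatives. Named list genes were up to 6 called genes of smallest p per list, or 2 uncalled ones where fewer than 2 were called. The markers, lists and tests were chosen with earlier results of these data known.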

Additional observations from a re-analysis of the deposited data

How the results depend on the processing

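The counts of 2 markers higher and 2 lower held under all 15 alternatives. Changes near 0 turned sign: SOX4 was at 0.010 on the log2 scale with library totals only and between -0.12 and 0.057 with 1 library left out, KRT19 between -0.0029 and 0.063, and PROM1 between -0.10 and 0.0064. Over all genes, 648 were higher and 694 lower. With library totals only these were 907 and 462, and with no filter 932 were higher. Leaving out 1 library gave 286 to 1172 higher and 250 to 1085 lower. With a replicate block, 563 were higher and 511 lower, against 648 and 694 without it, and no call of a marker changed. Among the list genes, the calls of ELF3, GOLM1 and FHL2 were lost under it (edgeR adjusted p = 0.0606, 0.104 and 0.0623). Samples of the same number did not deviate together (correlations across genes of 0.0071, 0.0579 and -0.0304 for numbers 1, 2 and 3), and no pairing is labelled. KRT7, at 8 counts over 3 Control libraries, is limited by depth. The cause of these shifts was not tested.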
